A study of Mus musculus with 8 samples.

Results

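Cholesterol synthesis and its control by SREBP2 were followed through 27 genes in MH-S cells, an immortalised line of mouse alveolar macrophages, the phagocytes that live in the airspaces of the lung. The genes were picked by symbol: 8 encode the enzymes from acetoacetyl-CoA through mevalonate to the isoprenoid diphosphates, 11 those from squalene to cholesterol, 4 the sterol-sensing machinery, and 4 are other genes that SREBPs switch on. All 27 were found among the 17518 genes of the deposited table, and all 27 passed the filter on low counts. The study tested RCMNs, nanoparticles described as responsive to reactive oxygen species, in these cells. Its 8 RNA-seq libraries formed 3 groups. LPS+RCMNs cells received 100 ng/mL lipopolysaccharide (LPS, a bacterial wall component that activates macrophages) together with 1 µg/mL RCMNs (n = 3). LPS cells received LPS, with no dose stated for this group by itself (n = 2). Control cells received phosphate-buffered saline (n = 3). No group received RCMNs without LPS, so an effect of the particles by themselves and an effect on the response to LPS cannot be told apart. Nothing in the labels says that replicates came from separate cultures, and the p-values therefore describe the spread between these libraries, which may be technical.

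Cells build cholesterol from acetyl-CoA by way of mevalonate, farnesyl diphosphate and squalene. Geranylgeranyl diphosphate is made from farnesyl diphosphate on a side branch, and both supply the lipid anchors of many small GTPases. The transcription factor SREBP2, the product of Srebf2, is made as a precursor in the membrane of the endoplasmic reticulum, where its escort Scap and the anchor proteins INSIG1 and INSIG2 hold it while sterols are plentiful. When membrane sterol falls, Scap carries the precursor to the Golgi, where proteases release its active end. The active end switches on nearly every enzyme of the pathway, the LDL receptor and INSIG1 itself. In macrophages this pathway is set against LXR, the sensor of excess sterol that drives cholesterol export.

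SREBPs bind sterol regulatory elements in promoters, usually beside the CCAAT box bound by NF-Y. The promoters below show the letters of both for Hmgcs1 and Srebf2. Those of Insig1 and Ebp held CCAAT without either form searched for the sterol element. Hmgcs1 was shown because its window holds the letters of a sterol element, Insig1 because it passed the test in all 3 comparisons, Srebf2 as the gene of the factor itself, and Ebp because it was higher in LPS than in control while most of the 27 genes had values below 0. Each run is the 250 bases before the RefSeq gene start (build GRCm38.p6), written 5′ to 3′ in the gene's direction, and capitals mark TCACNCCAC or its shorter form TCACNCCA on the gene's strand and CCAAT in its reverse form ATTGG.
Hmgcs1 promoter, chr13:119690101-119690350, plus strand: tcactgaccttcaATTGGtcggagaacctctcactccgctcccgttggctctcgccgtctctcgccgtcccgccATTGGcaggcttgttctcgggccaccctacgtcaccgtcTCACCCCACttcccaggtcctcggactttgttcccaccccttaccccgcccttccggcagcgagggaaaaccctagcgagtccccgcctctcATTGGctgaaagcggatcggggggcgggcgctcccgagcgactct
Insig1 promoter, chr5:28071162-28071411, plus strand: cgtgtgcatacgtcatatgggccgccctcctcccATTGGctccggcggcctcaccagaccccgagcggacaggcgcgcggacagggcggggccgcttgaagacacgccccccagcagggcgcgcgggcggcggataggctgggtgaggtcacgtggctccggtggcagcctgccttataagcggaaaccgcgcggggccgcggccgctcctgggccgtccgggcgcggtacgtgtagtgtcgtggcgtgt
Srebf2 promoter, chr15:82147019-82147268, plus strand: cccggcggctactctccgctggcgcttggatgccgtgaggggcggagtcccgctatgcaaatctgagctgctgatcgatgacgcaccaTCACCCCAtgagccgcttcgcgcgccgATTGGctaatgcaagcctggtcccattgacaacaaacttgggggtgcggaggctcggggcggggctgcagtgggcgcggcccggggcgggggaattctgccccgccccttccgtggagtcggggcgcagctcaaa
Ebp promoter, chrX:8193513-8193762, minus strand: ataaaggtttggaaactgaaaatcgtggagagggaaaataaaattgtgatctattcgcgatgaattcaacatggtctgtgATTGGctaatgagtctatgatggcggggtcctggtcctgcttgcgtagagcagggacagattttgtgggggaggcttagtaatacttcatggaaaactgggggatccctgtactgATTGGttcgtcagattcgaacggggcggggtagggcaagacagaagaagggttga
Windows of 300 bases, from 250 before to 50 after each start, were at hand for 22 of the 27 genes. Searched on both strands, the letters TCACNCCAC occurred in 1.24% of all 32851 mouse windows, and among the 28 windows of the 22 genes they occurred in 1, that of Hmgcs1, at positions -137 to -129 from the start. The shorter TCACNCCA, which is the longer motif without its last letter and was searched after the windows had been read, occurred in 4.36% of all windows and in 3 of these 28, those of Hmgcs1, Msmo1 and Srebf2. CCAAT occurred in 37.4% of all windows and in 18 of these 28, with 3 copies before Hmgcs1, 2 before Ebp and 1 each before Insig1 and Srebf2. These matches describe the letters of the windows and say nothing of what was bound in these cells.

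Total counts ran from 18.64 to 21.22 M reads per library, and 11911 genes were tested. Levels of a gene across libraries are given as CPM, the count per 1 M reads of the scaled library size. Levels of different genes are compared as FPKM, which the authors also scaled to transcript length. The 2 LPS libraries differed from the other 6 over the whole transcriptome in 2 respects that bear on every comparison with them: short genes were higher and long genes lower (rank correlation of the LPS versus control log2 fold change with gene length -0.59 across genes), and the 8 erythroid markers summed to 0.81 to 34.3 CPM in LPS+RCMNs, 4359 and 5624 CPM in LPS, and 1.17 to 20.9 CPM in control. What part these differences had in the results on the 27 genes was not tested beyond the removal of the length trend given beside them. LPS+RCMNs replicate 2 and control replicate 1 stood apart from the other libraries of their groups. The 12 macrophage markers summed to 6634 to 8302 CPM in LPS+RCMNs, 5609.9 to 6726 CPM in LPS and 4733 to 5769.7 CPM in control, but Siglecf was too low to test and Marco averaged 0.988, 0.242 and 0.0775 CPM in LPS+RCMNs, LPS and control. These markers of lung-resident alveolar macrophages were nearly absent from the line. Epithelial, fibroblast and lymphocyte markers summed to at most 0.788 CPM in any library, and neutrophil markers to at most 4.97 CPM, in LPS. Fewer cells of a type and less RNA per cell cannot be told apart in such bulk samples.

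Cholesterol synthesis genes were called in both directions in LPS+RCMNs versus LPS and in LPS versus control, and only lower in LPS+RCMNs versus control. In LPS+RCMNs versus LPS, 4 of the 27 genes were higher and 6 lower at an adjusted p below 0.05 (edgeR's quasi-likelihood test with Benjamini-Hochberg adjustment over all genes tested). Of all 11911 genes, 29.8% were higher and 29.5% lower. Thus 10 of 27 were called beside 59.3% of all genes, a difference in share that was not tested and that had the opposite sign by limma on FPKM (18 of 27 beside 63.5%). The median log2 fold change was 0.09 over the 27 genes and 0.03 over all genes. In LPS versus control, 4 of 27 were higher and 10 lower, beside 31.4% and 32.1% of all genes, with medians of -0.23 and -0.04. Thus 14 of 27 were called beside 63.4% of all genes, again untested and again with the opposite sign by limma (20 of 27 beside 67.5%). In LPS+RCMNs versus control, 3 of 27 were lower, beside 3.23% of all genes, and none was higher, beside 4.33%. By edgeR at an unadjusted p below 0.05 that last comparison had 0 higher and 10 lower, and by DESeq2 0 higher and 4 lower. For these rules no share over all genes is given, here or below, so their counts have nothing to be read against. Limma on FPKM had 0 higher and 2 lower, where it called 8.16% of all genes (3.42% higher and 4.74% lower). The values of LPS+RCMNs versus control were nonetheless uneven in sign: 25 of the 27 log2 fold changes were below 0 (median -0.25), against 6365 of 11911 over all genes (median -0.02).

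**Figure D1:**
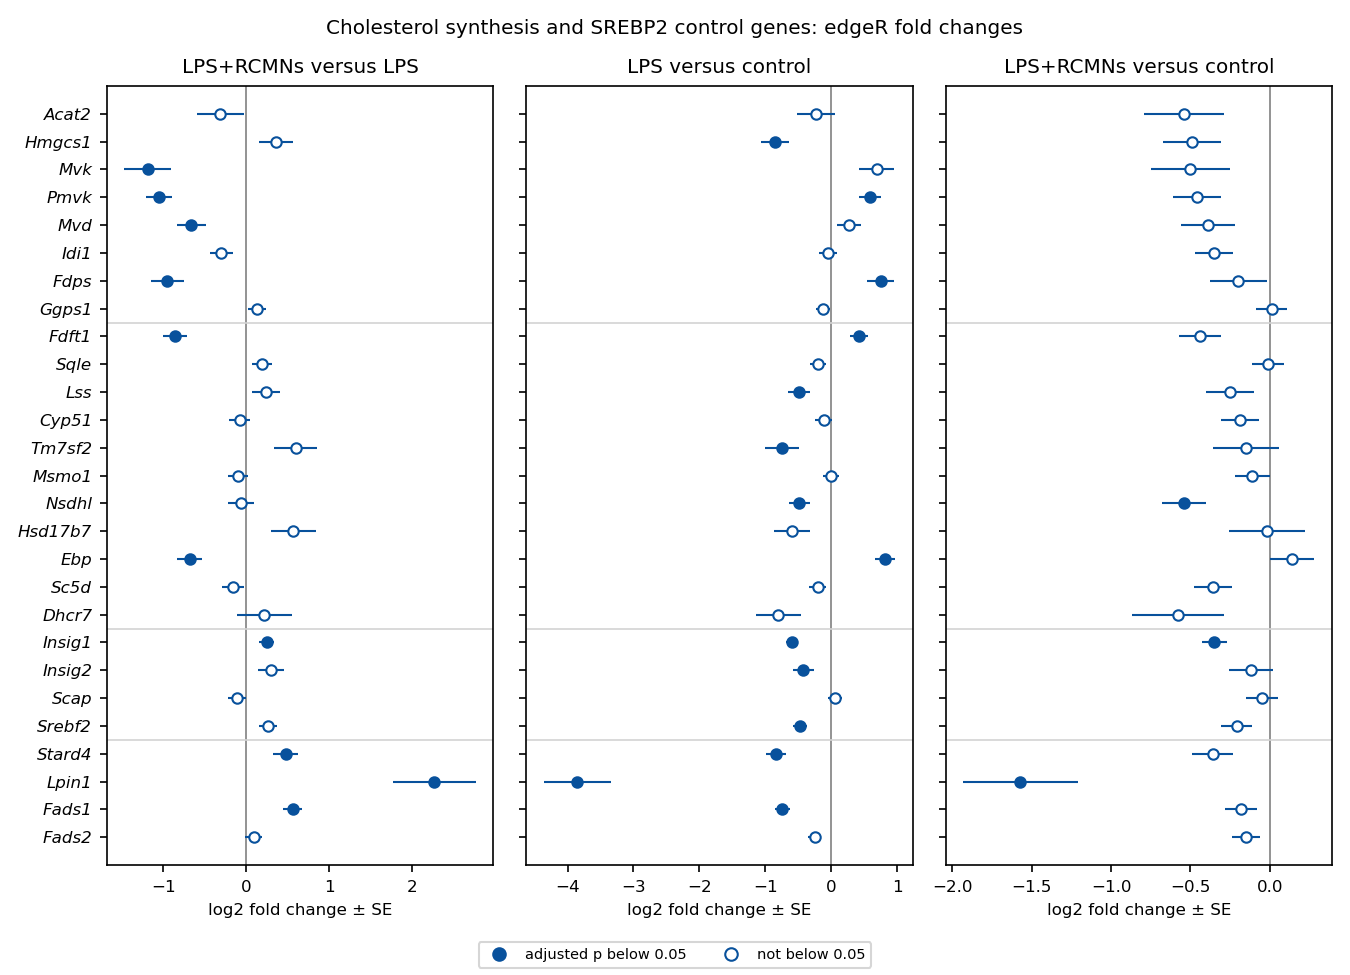
Log2 fold change (x axis, ± SE) of the 27 genes (rows, grouped by role) in the 3 comparisons, each panel with its own scale; filled points had an adjusted p below 0.05 by edgeR's quasi-likelihood test. Mvk, Pmvk, Mvd, Fdps, Fdft1 and Ebp lie left of 0 in LPS+RCMNs versus LPS, while Insig1, Stard4, Lpin1 and Fads1 lie right of it; in LPS+RCMNs versus control 25 of 27 points lie below 0.

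The counts differed between the roles, though that difference was not tested. Of the 8 enzymes that lead to the isoprenoid diphosphates, 4 were lower and none higher in LPS+RCMNs than in LPS (edgeR at an unadjusted p below 0.05 and DESeq2 also gave 4 lower and 0 higher, and limma on FPKM 3 lower and 2 higher), beside 29.8% of all genes higher and 29.5% lower. Of the 4 sterol-sensing genes 1 was higher, and of the 4 other SREBP-driven genes 3 were, with none lower in either set by edgeR at an unadjusted p below 0.05, by DESeq2 or by limma. Sets of 4 are too small to read against those shares. In LPS versus control, where 31.4% of all genes were higher and 32.1% lower, the enzymes up to the isoprenoids had 2 higher and 1 lower, and the sterol-sensing and other SREBP-driven genes had 3 lower in each set and none higher, again none higher by the same 3 tests. Among the 11 enzymes from squalene to cholesterol, 2 were lower and none higher in LPS+RCMNs versus LPS (1 higher by edgeR at an unadjusted p below 0.05, 0 by DESeq2 and 4 by limma), and 2 were higher and 3 lower in LPS versus control. Much of this contrast was gone once the length trend was removed, though less so for the other SREBP-driven genes. The enzymes up to the isoprenoids then had none higher and 1 lower in LPS+RCMNs versus LPS and none called in LPS versus control, and the sterol-sensing genes 1 higher and 1 lower, and 1 higher and 2 lower. The other SREBP-driven genes had 2 higher and none lower, and none higher and 2 lower. The enzymes from squalene on had 1 higher and 2 lower, and 1 higher and 3 lower. The shares of all genes were then 18.8% higher and 21.2% lower, and 23.4% and 21.9%. These comparisons share the LPS libraries, so a high or low level in LPS enters both with opposite signs, and the 8 genes called in both (Pmvk, Fdps, Fdft1, Ebp, Insig1, Stard4, Lpin1 and Fads1) each had opposite signs in them.

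Fdps makes farnesyl diphosphate, the branch point between sterols and isoprenoids, and had the highest level per length of the 27 genes, with a mean of 209.8 FPKM over the 8 libraries. It read 158, 267 and 179 CPM in LPS+RCMNs, 405 and 375 CPM in LPS, and 267, 219.6 and 207 CPM in control. Both LPS libraries stood above all 6 others, and LPS+RCMNs replicate 2 stood with the controls. The log2 fold change was -0.95 ± 0.20 (SE) in LPS+RCMNs versus LPS (adjusted p = 0.00299), 0.75 ± 0.20 in LPS versus control (adjusted p = 0.00959) and -0.20 ± 0.18 in LPS+RCMNs versus control (adjusted p = 0.574), all by edgeR's quasi-likelihood test, as are the adjusted p-values that follow. Pmvk, which phosphorylates phosphomevalonate, had the same shape: 18.4, 25.3 and 18.8 CPM in LPS+RCMNs, 43.2 and 43.3 CPM in LPS, and 32.9, 25.3 and 27.8 CPM in control. The LPS libraries again stood above all the rest, with log2 fold changes of -1.05 ± 0.16 against LPS (adjusted p = 0.000461) and, for LPS versus control, 0.59 ± 0.16 (adjusted p = 0.0103). Both are short genes, of 1206 and 1134 bases, and with the trend on gene length removed neither passed in either comparison. Fdps then had -0.26 (adjusted p = 0.332) in LPS+RCMNs versus LPS and 0.01 (adjusted p = 0.985) in LPS versus control. Pmvk had -0.30 (adjusted p = 0.165) and -0.22 (adjusted p = 0.308) in these comparisons, the last with its sign turned. Without LPS replicate 1, Fdps in LPS versus control was 0.74 (adjusted p = 0.0584).

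Mevalonate kinase, Mvk, read 8.24, 14.4 and 8.12 CPM in LPS+RCMNs, 26.8 and 20.1 CPM in LPS, and 18, 12.5 and 13.1 CPM in control. The LPS libraries were the highest, and LPS+RCMNs replicate 2 lay among the controls. Mvk fell in LPS+RCMNs versus LPS (log2 fold change -1.19 ± 0.28, adjusted p = 0.00464). It still passed with the length trend removed (-0.78, adjusted p = 0.0482), but not without LPS replicate 1 (-0.98, adjusted p = 0.0549). Its LPS versus control value was 0.69 ± 0.27 (adjusted p = 0.0514). Mvd, which decarboxylates mevalonate diphosphate to isopentenyl diphosphate, read 30.9, 42.9 and 31.5 CPM in LPS+RCMNs, 60.6 and 49.9 CPM in LPS, and 54.8, 41.1 and 41.6 CPM in control, so that LPS overlapped control and lay above LPS+RCMNs. It fell in LPS+RCMNs versus LPS (-0.66 ± 0.18, adjusted p = 0.0126). The call was lost without LPS replicate 1 (-0.52, adjusted p = 0.113) and with the length trend removed (-0.27, adjusted p = 0.28).

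Hmgcs1, the synthase that makes HMG-CoA, ran the other way. It read 179, 297 and 179 CPM in LPS+RCMNs, 175 and 165 CPM in LPS, and 301, 314 and 303 CPM in control. The LPS libraries were the lowest of the 8, 2 LPS+RCMNs libraries lay just above them, and LPS+RCMNs replicate 2 lay just below the controls. Hmgcs1 fell in LPS versus control (log2 fold change -0.85 ± 0.21, adjusted p = 0.00574). The call was lost without LPS replicate 2 (-0.75, adjusted p = 0.0633) and, narrowly, with the length trend removed (-0.61, adjusted p = 0.0502). Its values were 0.36 ± 0.20 (adjusted p = 0.154) in LPS+RCMNs versus LPS and -0.49 ± 0.18 (adjusted p = 0.146) in LPS+RCMNs versus control. The remaining members of this stretch passed in no comparison. Limma on FPKM called Idi1 (-0.51) and Ggps1 (-0.38) lower in LPS versus control, where the median of all genes was -0.33. It called Ggps1 higher in LPS+RCMNs versus LPS (0.34), where that median was 0.27. Acat2, the acetoacetyl-CoA thiolase of the cytosol, averaged 46.1 ± 15.4 CPM in LPS+RCMNs, 57.3 ± 5.33 CPM in LPS and 67 ± 20.7 CPM in control (SD, n = 3, 2 and 3). The isomerase Idi1 averaged 59.2 ± 3.87 CPM in LPS+RCMNs, 72.9 ± 10.1 CPM in LPS and 75.3 ± 10.5 CPM in control. Ggps1, which makes geranylgeranyl diphosphate, averaged 43.1 ± 1.32 CPM in LPS+RCMNs, 39.5 ± 5.84 CPM in LPS and 42.8 ± 1.44 CPM in control.

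Fdft1, the squalene synthase that commits farnesyl diphosphate to sterols, shared the pattern of Fdps. It read 65.4, 89.4 and 64.2 CPM in LPS+RCMNs, 141 and 124 CPM in LPS, and 104, 96.9 and 96.5 CPM in control. No group overlapped another: LPS was highest, control next and LPS+RCMNs lowest. Fdft1 fell in LPS+RCMNs versus LPS (log2 fold change -0.86 ± 0.14, adjusted p = 0.000753), passed there under every alternative run, and with the length trend removed had -0.96 (adjusted p = 0.00155). It rose in LPS versus control (0.42 ± 0.14, adjusted p = 0.0298). That call was lost without LPS replicate 1, control replicate 2 or control replicate 3 (0.37 to 0.45, adjusted p = 0.0519 to 0.148), and limma on FPKM, where the median of all genes was -0.33, gave -0.02 (adjusted p = 0.905). Against control, LPS+RCMNs had -0.44 ± 0.13 (adjusted p = 0.0789). The gene spans of Fdft1 and of Ctsb, an abundant lysosomal protease gene of macrophages, share 774 bases on chromosome 14. No source says whether counting used strand, so reads from that stretch may belong to either gene.

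Ebp, the sterol isomerase that moves a ring double bond late in the pathway, read 27.7, 36.9 and 28.3 CPM in LPS+RCMNs, 54.5 and 44.7 CPM in LPS, and 30.5, 27.2 and 26.3 CPM in control. LPS lay above the other groups, which overlapped. Ebp fell in LPS+RCMNs versus LPS (log2 fold change -0.68 ± 0.15, adjusted p = 0.00388) and rose in LPS versus control (0.82 ± 0.15, adjusted p = 0.00118). At 1694 bases it is short, and with the length trend removed the values were -0.28 (adjusted p = 0.179) and 0.39 (adjusted p = 0.067).

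Further along the same stretch, 3 genes fell in LPS versus control. Nsdhl, a dehydrogenase that helps remove the methyl groups at the fourth carbon of the sterol ring, read 28.2, 35.3 and 25.6 CPM in LPS+RCMNs, 32.3 and 29.7 CPM in LPS, and 49.2, 40.3 and 40 CPM in control. Both treated groups overlapped each other and lay below control. The log2 fold change was -0.48 ± 0.16 in LPS versus control (adjusted p = 0.0244) and -0.54 ± 0.14 in LPS+RCMNs versus control (adjusted p = 0.049), so that Nsdhl was 1 of the 3 genes called against control there. With 1 library left out the first call was lost in 3 of 8 fits (LPS replicates 1 and 2 and control replicate 1, adjusted p = 0.0908 to 0.195) and the second in 7 of 8 (all but LPS+RCMNs replicate 2, -0.57 to -0.41, adjusted p = 0.0996 to 0.213). Lss, which closes squalene epoxide to lanosterol, had 86 ± 18.6 CPM in LPS+RCMNs, 72.8 ± 6.36 CPM in LPS and 102 ± 11.8 CPM in control, and an LPS versus control log2 fold change of -0.49 ± 0.17 (adjusted p = 0.0331). With the length trend removed it was -0.01 (adjusted p = 0.973), and without either LPS library or any control library it was -0.54 to -0.34 (adjusted p = 0.0501 to 0.255). The sterol reductase gene Tm7sf2 was the lowest member per length, with a mean of 1.87 FPKM, and its LPS level rested on 59 counts over both libraries: 3.04, 2.53 and 2.55 CPM in LPS+RCMNs, 2 and 1.58 CPM in LPS, and 3.55, 2.75 and 2.69 CPM in control. It fell in LPS versus control (-0.75 ± 0.26, adjusted p = 0.0291), but the call was lost without LPS+RCMNs replicate 3, either LPS library or any control library (-0.89 to -0.53, adjusted p = 0.0555 to 0.199) and by DESeq2. Its value with the length trend removed was -1.34 (adjusted p = 0.00288), and Tm7sf2 was then also higher in LPS+RCMNs than in LPS (1.14, adjusted p = 0.00781, against 0.60 with the trend left in).

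The other 6 enzymes between squalene and cholesterol passed in no comparison. Limma on FPKM, however, called all 6 lower in LPS versus control (-1.14 to -0.47), beside 49.7% of all genes. It called Sqle (0.59), Cyp51 (0.33) and Hsd17b7 (0.90) higher in LPS+RCMNs versus LPS, beside 45.7% of all genes. Sqle, the squalene epoxidase and a rate-limiting step, averaged 214 ± 25.7 CPM in LPS+RCMNs, 187 ± 5.59 CPM in LPS and 216 ± 15.2 CPM in control, with log2 fold changes of 0.19 ± 0.12, -0.20 ± 0.12 and -0.01 ± 0.10 in the 3 comparisons. Cyp51, the demethylase of lanosterol, averaged 182 ± 17.3 CPM in LPS+RCMNs, 192 ± 11.1 CPM in LPS and 207 ± 28 CPM in control. Msmo1, which oxidises the methyl groups at the fourth carbon, averaged 161 ± 25 CPM in LPS+RCMNs, 173 ± 3.23 CPM in LPS and 173 ± 5.44 CPM in control. With the length trend removed Cyp51 fell in LPS+RCMNs versus LPS (-0.52, adjusted p = 0.0162) and Msmo1 fell in LPS versus control (-0.38, adjusted p = 0.0393). Sc5d, which adds a late double bond, averaged 67.1 ± 7.32 CPM in LPS+RCMNs, 74.8 ± 3.54 CPM in LPS and 86.2 ± 10.7 CPM in control. Dhcr7, which reduces 7-dehydrocholesterol to cholesterol, read 26.2, 45.6 and 25.7 CPM in LPS+RCMNs, 28.8 and 27 CPM in LPS, and 70.8, 38.1 and 36.3 CPM in control, with LPS+RCMNs replicate 2 and control replicate 1 well above the rest of their groups. Hsd17b7, the sterol ketone reductase, read 72.1, 87.4 and 63.7 CPM in LPS+RCMNs, 49 and 51.3 CPM in LPS, and 45.8, 93.2 and 87 CPM in control, so that control replicate 1 lay with the LPS libraries. In LPS versus control the log2 fold change was -0.80 ± 0.34 for Dhcr7 (adjusted p = 0.0636) and -0.59 ± 0.27 for Hsd17b7 (adjusted p = 0.0846). Dhcr7 was called there by DESeq2 and with the replicate block. Without control replicate 1, Hsd17b7 was called in both comparisons with LPS.

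**Figure D2:**
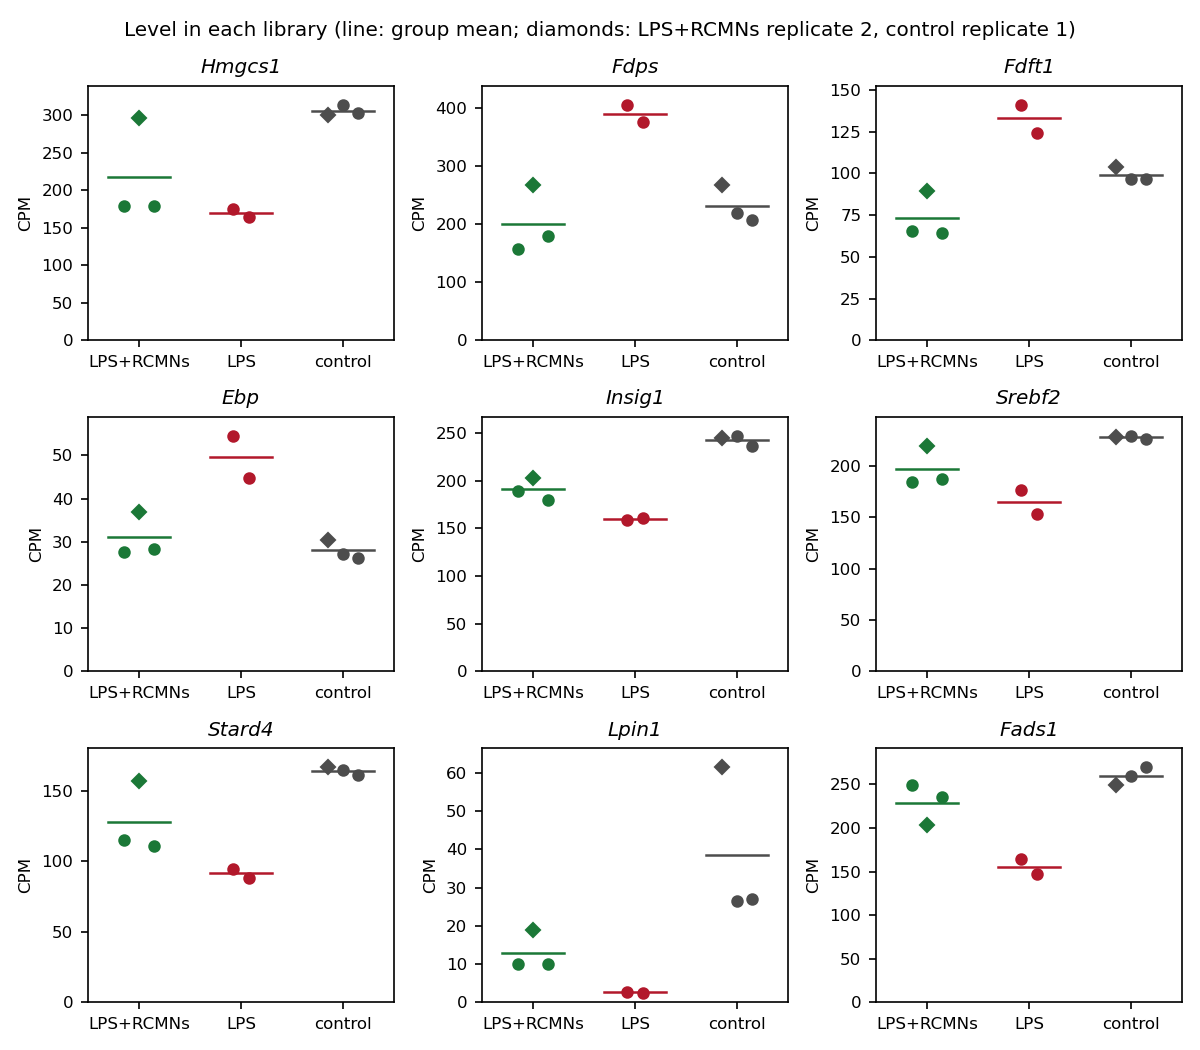
Level (CPM, y axis from 0) of 9 genes in each library of LPS+RCMNs, LPS and control; lines are group means and diamonds are LPS+RCMNs replicate 2 and control replicate 1. LPS is the highest group for Fdps, Fdft1 and Ebp and the lowest for Hmgcs1, Insig1, Srebf2, Stard4, Lpin1 and Fads1; Lpin1 is lowest in LPS replicate 2, at 2.54 CPM.

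Insig1 encodes the ER anchor of the SREBP escort and is itself a standard readout of SREBP2 activity. It read 189.6, 203 and 179.7 CPM in LPS+RCMNs, 159 and 161 CPM in LPS, and 245, 247 and 236 CPM in control. The groups formed 3 steps without overlap, LPS lowest, LPS+RCMNs between and control highest. The log2 fold change was 0.25 ± 0.09 in LPS+RCMNs versus LPS (adjusted p = 0.0328), -0.60 ± 0.09 in LPS versus control (adjusted p = 0.000308) and -0.35 ± 0.08 in LPS+RCMNs versus control (adjusted p = 0.0298). The LPS versus control call held under every alternative run, from -1.07 to -0.54. The other 2 calls were lost in 7 of the 8 fits with 1 library left out, at 0.18 to 0.27 (adjusted p = 0.0565 to 0.146; all but control replicate 1) and at -0.35 to -0.28 (adjusted p = 0.0503 to 0.177; all but LPS+RCMNs replicate 2). With the length trend removed all 3 passed (0.28, -0.63 and -0.35, adjusted p = 0.0453, 0.000909 and 0.0415). Both of the less stable calls were also lost with no filter, with only the groups compared and with the replicate block. The call in LPS+RCMNs versus LPS was lost with median-ratio size factors too. In these settings the values were 0.22 to 0.28 in LPS+RCMNs versus LPS and -0.35 to -0.33 in LPS+RCMNs versus control.

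Srebf2 itself, from which the factor is made, read 184, 219 and 187 CPM in LPS+RCMNs, 176 and 153 CPM in LPS, and 228, 229 and 226 CPM in control. The order of the groups was the one seen for Insig1, again with no overlap. Srebf2 fell in LPS versus control (-0.47 ± 0.11, adjusted p = 0.00424), but it is a long gene of 4683 bases, and with the length trend removed the value was 0.08 (adjusted p = 0.632). Without LPS replicate 2 it was -0.32 (adjusted p = 0.0791). Its LPS+RCMNs versus LPS value was 0.26 ± 0.11 (adjusted p = 0.0644). Insig2, the second anchor, averaged 26.4 ± 0.666 CPM in LPS+RCMNs, 21.4 ± 2.86 CPM in LPS and 28.6 ± 5.45 CPM in control. Its LPS versus control call (-0.42 ± 0.16, adjusted p = 0.047) was lost whichever of the 8 libraries was left out (-0.53 to -0.20, adjusted p = 0.0561 to 0.379). Scap, the escort, averaged 51.9 ± 3.15, 56.1 ± 5.8 and 53.7 ± 3.51 CPM in LPS+RCMNs, LPS and control and passed in no comparison. With the length trend removed it was lower in LPS+RCMNs than in LPS (-0.52, adjusted p = 0.00826) and higher in LPS than in control (0.50, adjusted p = 0.00876). Limma on FPKM called Scap the opposite way in both, at 0.28 (adjusted p = 0.034) and -0.39 (adjusted p = 0.00717). The medians of all genes by limma were 0.27 and -0.33.

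Lpin1, which encodes the phosphatidate phosphatase lipin 1 and is switched on by SREBPs when sterol is low, had the largest fold change of the 27 genes in all 3 comparisons. It read 10, 18.8 and 9.9 CPM in LPS+RCMNs, 2.79 and 2.54 CPM in LPS, and 61.5, 26.5 and 27.1 CPM in control. The 3 groups did not overlap, and LPS+RCMNs replicate 2 and control replicate 1 were each the highest of their group. The log2 fold change was 2.27 ± 0.50 in LPS+RCMNs versus LPS (adjusted p = 0.00335, a 4.83-fold higher level), -3.85 ± 0.51 in LPS versus control (adjusted p = 0.000154) and -1.57 ± 0.36 in LPS+RCMNs versus control (adjusted p = 0.0344). The first 2 calls held under every alternative run, at 1.30 to 2.48 and -4.01 to -2.54, with 1.69 and -3.21 once the length trend was removed. The third was lost without LPS+RCMNs replicate 1, LPS+RCMNs replicate 3, LPS replicate 1 or LPS replicate 2 (-1.55 to -1.39, adjusted p = 0.073 to 0.139).

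Stard4, a carrier that moves cholesterol between membranes, read 115, 157 and 111 CPM in LPS+RCMNs, 94.5 and 88.5 CPM in LPS, and 167, 165 and 161 CPM in control. It showed the 3 steps of Insig1 without overlap. Stard4 rose in LPS+RCMNs versus LPS (0.48 ± 0.15, adjusted p = 0.0183) and fell in LPS versus control (-0.84 ± 0.15, adjusted p = 0.00087). At 5264 bases it is the second longest of the 27 genes, and with the length trend removed the values were -0.10 (adjusted p = 0.674), with the sign turned, and -0.21 (adjusted p = 0.364). Without LPS replicate 1 or LPS replicate 2 the rise was 0.40 to 0.51 (adjusted p = 0.0731 to 0.138).

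Fads1 and Fads2 are the neighbouring genes on chromosome 19 for the desaturases that make long polyunsaturated fatty acids. Fads1 read 249, 203 and 236 CPM in LPS+RCMNs, 164 and 147 CPM in LPS, and 249, 259.8 and 270 CPM in control. LPS lay below both other groups, which overlapped. Fads1 rose in LPS+RCMNs versus LPS (0.56 ± 0.11, adjusted p = 0.00197) and fell in LPS versus control (-0.74 ± 0.11, adjusted p = 0.000355). Both calls held under every alternative run, with 0.33 (adjusted p = 0.0325) and -0.50 (adjusted p = 0.00428) after removal of the length trend. Fads2 averaged 274 ± 16.3 CPM in LPS+RCMNs, 257 ± 29.2 CPM in LPS and 305 ± 15 CPM in control. It passed in no comparison, with -0.25 ± 0.10 (adjusted p = 0.0642) in LPS versus control. Limma on FPKM called Fads2 higher in LPS+RCMNs versus LPS (0.51) and lower in LPS versus control (-0.73). The medians of all genes by limma were 0.27 and -0.33. Whether the 2 neighbours differed in their change was not tested.

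Per length, the pathway was unevenly expressed. After Fdps came Fads2, Msmo1, Insig1, Sqle and Hmgcs1 with means over all 8 libraries of 99.9, 94.6, 80.1, 78.3 and 72 FPKM, and at the low end stood Mvk, Lpin1 and Tm7sf2 with 8.83, 4.05 and 1.87 FPKM. Summed over the 11 enzymes from squalene on, FPKM was 347, 431 and 321 in LPS+RCMNs, 299.9 and 293 in LPS, and 431, 435 and 424 in control. The 4 sterol-sensing genes summed to 142, 158 and 138 FPKM in LPS+RCMNs, 95.7 and 92.2 FPKM in LPS, and 191, 183 and 178 FPKM in control. In both sums LPS was lowest, and the sum for the sensing genes had 3 groups without overlap. The 8 earlier enzymes, with Fdps the highest, summed to 287, 455 and 305 FPKM in LPS+RCMNs, 426 and 403 FPKM in LPS, and 521, 432 and 420.2 FPKM in control, with overlap between all 3 groups. FPKM values are not rescaled for composition, and by limma on log2(FPKM + 1) the median of all genes itself moved by 0.27 in LPS+RCMNs versus LPS and -0.33 in LPS versus control, and beside those shifts 14 of the 27 genes were higher and 4 lower in LPS+RCMNs versus LPS. Of all genes 63.5% were called there, 45.7% higher and 17.8% lower. For LPS versus control limma called 20 of the 27 lower and none higher, beside 49.7% and 17.7% of all genes. On that scale Mvd and Ebp did not pass in LPS+RCMNs versus LPS (-0.24 and -0.26, adjusted p = 0.295 and 0.162), nor Pmvk, Fdps and Ebp in LPS versus control (0.10, 0.28 and 0.32).

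Gene length moved with the fold changes of these genes in both comparisons with LPS. The rank correlation with length over the 27 genes, which share their libraries, was 0.60 in LPS+RCMNs versus LPS and -0.51 in LPS versus control. Over all genes it was 0.60 and -0.59. Between LPS+RCMNs and control it was 0.08 over the 27 genes. Of the 7 genes under 2000 bases (Mvk, Pmvk, Mvd, Fdps, Tm7sf2, Msmo1 and Ebp), 5 were lower and none higher in LPS+RCMNs than in LPS (median log2 fold change -0.68). The 20 longer genes had 4 higher and 1 lower (median 0.21), and all genes 29.8% higher and 29.5% lower. With a smooth trend on length removed from each library, the list had 4 higher and 4 lower in LPS+RCMNs versus LPS (18.8% and 21.2% of all genes), 2 higher and 7 lower in LPS versus control (23.4% and 21.9%, or 45.3% in all). Against control, LPS+RCMNs had 2 lower and none higher (3.16% and 4.25% of all genes, or 7.4% in all). Mvk, Fdft1, Insig1, Lpin1 and Fads1 kept their calls in LPS+RCMNs versus LPS under this setting, and Fdft1, Tm7sf2, Nsdhl, Insig1, Insig2, Lpin1 and Fads1 kept theirs in LPS versus control. What part of the length trend came from the treatment and what part from the RNA or the libraries was not tested.

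**Figure D3:**
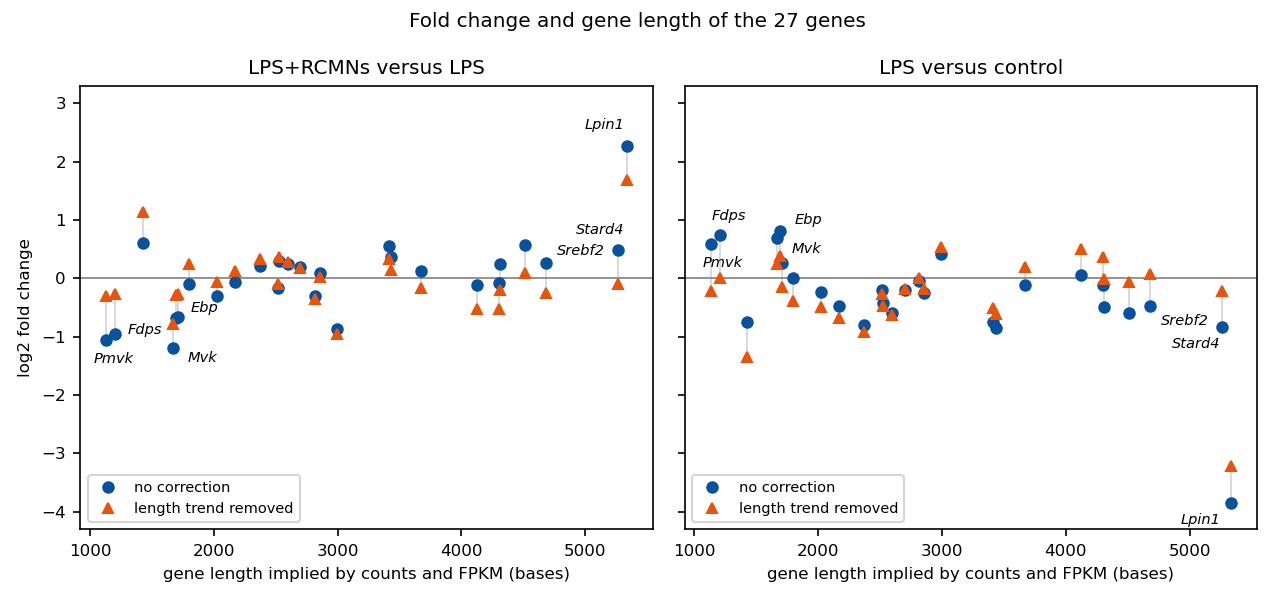
Log2 fold change (y axis) against gene length in bases (x axis) for the 27 genes in LPS+RCMNs versus LPS and in LPS versus control; circles are the values without correction, triangles those with the length trend of each library removed, and a line joins both values of a gene. Pmvk, Fdps, Ebp, Srebf2, Stard4 and Lpin1 move toward or past 0, and Lpin1, with the largest values before, is at 1.69 and -3.21 after.

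The calls in LPS+RCMNs versus control changed with the library left out, and all were lost without LPS+RCMNs replicate 1 or without LPS+RCMNs replicate 3. All were also lost without either LPS library, though LPS is not part of that comparison. The same held with only the groups compared and with the replicate block. LPS+RCMNs replicate 2 and control replicate 1 stood apart from their groups. LPS+RCMNs replicate 2 was the highest of its group for 24 of the 27 genes, against 44.5% of all genes, with a median log2 ratio to the mean of the other replicates of 0.36 (0.00 over all genes). The exceptions were Ggps1, Tm7sf2 and Fads1. The ratio reached 1.89 for Lpin1, 1.76 for Mvk and Dhcr7, 1.72 for Acat2 and 1.66 for Hmgcs1, while replicates 1 and 3 differed by a median log2 gap of 0.04. Control replicate 1 was less one-sided: it was the highest of its group for 15 genes, the lowest for 10 and between for 2. It was high for Lpin1 (2.29 times the mean of the other controls), Dhcr7 (1.9 times) and Acat2 (1.65 times). It was low for Hsd17b7 (0.508 times), Idi1 (0.78 times) and Cyp51 (0.786 times), while Hmgcs1 (0.976 times), Insig1 (1.01 times) and Srebf2 (1 times) barely differed. Across the 27 genes the log2 ratios of these libraries had a Pearson r of 0.52 and a Spearman rho of 0.52, a description over genes of the same libraries. The summed globin level was 29.9, 0.608 and 33.5 CPM in LPS+RCMNs and 0.477, 20.4 and 20.1 CPM in control, lowest in the same 2 libraries. Its part in the differences of the 27 genes was not tested.

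**Figure D4:**
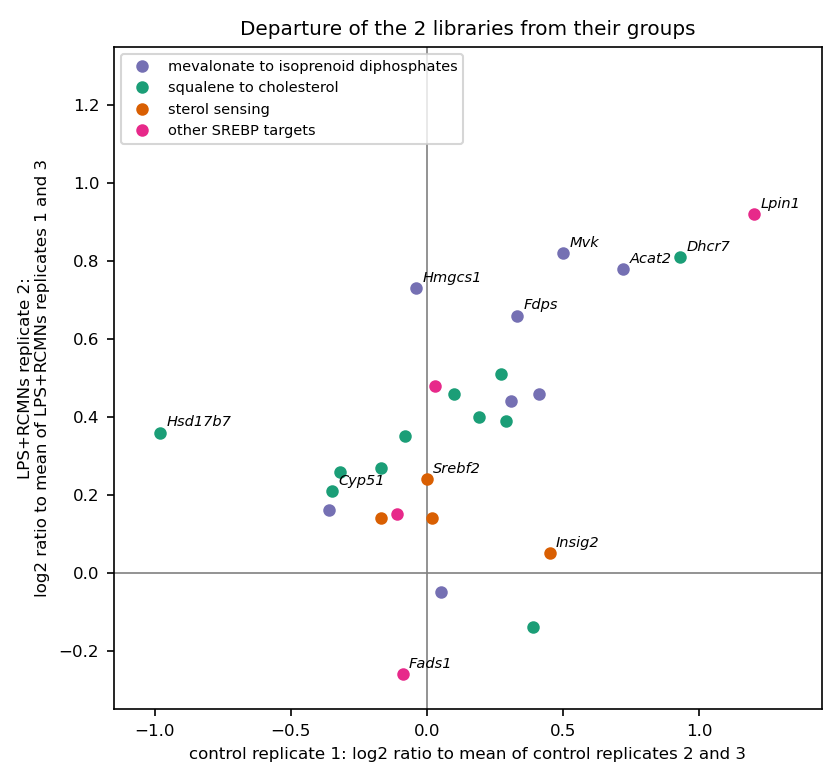
Log2 ratio of LPS+RCMNs replicate 2 to the mean of LPS+RCMNs replicates 1 and 3 (y axis) against that of control replicate 1 to the mean of control replicates 2 and 3 (x axis), 1 point per gene, coloured by role. Of the 27 points 24 lie above 0 on the y axis; Lpin1, Dhcr7, Acat2 and Mvk are high on both axes, and Hmgcs1 is high on the y axis only.

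Between the close replicates, LPS+RCMNs replicates 1 and 3 over control replicates 2 and 3, the log2 ratio was below 0 for 23 of the 27 genes, with a median of -0.39, against 55.6% of all genes. Between the 2 libraries that stood apart, LPS+RCMNs replicate 2 over control replicate 1, it was below 0 for 17 genes, with a median of -0.08, against 51.2% of all genes. Hmgcs1 had a log2 ratio of -0.79 between the close replicates and -0.02 between the 2 that stood apart, Stard4 -0.53 and -0.08, and Sc5d -0.55 and 0.03. In the same order Lpin1 had -1.43 and -1.71, Nsdhl -0.58 and -0.48, Acat2 -0.57 and -0.51, and Insig1 -0.39 and -0.27. With both libraries left out, 19 of the 27 genes were lower and none higher in LPS+RCMNs than in control, beside 10.6% of all genes lower and 14.8% higher. The lowest adjusted p-values belonged to Lpin1 (-1.40 ± 0.10, adjusted p = 6.57e-06), Hmgcs1 (-0.76 ± 0.06, adjusted p = 1.46e-05), Sc5d (-0.52 ± 0.06, adjusted p = 0.000221) and Stard4 (-0.50 ± 0.06, adjusted p = 0.000247). The 8 genes not called were Ggps1, Sqle, Tm7sf2, Ebp, Insig2, Scap, Fads1 and Fads2. Leaving out the libraries farthest from their groups narrows the spread by construction. Of all genes 25.5% were called in place of 7.56%. The same setting gave 7 higher and 12 lower in LPS+RCMNs versus LPS, where 73.8% of all genes were called (36.7% higher and 37.1% lower). It gave 6 higher and 13 lower in LPS versus control, where 74.9% were called (38.6% and 36.3%).

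Outside the list of 27, 6 further genes of synthesis were tested. Of these, 2 were higher and 3 lower in LPS+RCMNs versus LPS, and 3 higher and 3 lower in LPS versus control. All genes had 29.8% and 29.5%, and 31.4% and 32.1%. With the length trend removed the counts were 0 higher and 1 lower, and 1 higher and 0 lower. The shares of all genes were then 18.8% and 21.2%, and 23.4% and 21.9%. Among these genes, the thiolase Acat1 fell in LPS+RCMNs versus LPS (log2 fold change -0.76 ± 0.10, adjusted p = 0.000219) and rose in LPS versus control (0.41 ± 0.10, adjusted p = 0.00744). Ebpl, a relative of Ebp, had -0.72 ± 0.18 (adjusted p = 0.00792) and 0.64 ± 0.18 (adjusted p = 0.0122) in the same comparisons. Of 11 tested genes for SREBP processing and sterol-regulated protein turnover, 5 were higher and 2 lower in LPS+RCMNs versus LPS (8 and 1 by limma) and 2 higher and 3 lower in LPS versus control (2 and 9 by limma), beside 29.8% and 29.5%, and 31.4% and 32.1%, of all genes. The counts without the length trend were 2 higher and 1 lower, and 3 higher and 2 lower, beside 18.8% and 21.2%, and 23.4% and 21.9%, of all genes. None was called in LPS+RCMNs versus control (by edgeR at an unadjusted p below 0.05 there were 2 higher and 1 lower, by DESeq2 1 higher and by limma 0). The proteases that cut SREBPs in the Golgi both fell in LPS versus control and rose in LPS+RCMNs versus LPS: Mbtps1 averaged 84.9 ± 1.68, 47.5 ± 2.94 and 102 ± 9.2 CPM, and Mbtps2 59.7 ± 7.07, 30 ± 2.47 and 65.8 ± 6.28 CPM, in LPS+RCMNs, LPS and control. Aup1, which takes part in protein breakdown at the endoplasmic reticulum, moved the opposite way, with 130.5 ± 4.28 CPM in LPS+RCMNs, 244 ± 35.2 CPM in LPS and 123 ± 12.8 CPM in control. Mbtps1 and Mbtps2 are long genes, of 4186 and 4750 bases, and Aup1 is short, at 1581 bases. Over the 11 genes, log2 fold changes ran from -0.91 to 0.99 in LPS+RCMNs versus LPS and from -1.13 to 0.99 in LPS versus control. With the length trend removed these ranges narrowed to -0.45 to 0.48 and to -0.66 to 0.58.

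Genes of fatty acid synthesis, many driven by SREBP1, were mostly lower in LPS than in the other groups. Of 13 tested, 10 were higher and 1 lower in LPS+RCMNs versus LPS (median log2 fold change 0.69), and 2 were higher and 10 lower in LPS versus control (median -0.68). With the length trend removed the counts were 3 higher and 2 lower (median 0.13), and 3 higher and 4 lower (median -0.19). The shares over all genes were 29.8% higher and 29.5% lower, and 31.4% and 32.1%, or with the length trend removed 18.8% and 21.2%, and 23.4% and 21.9%. Scd2, a desaturase that makes monounsaturated fatty acids, averaged 1137 ± 82.2 CPM in LPS+RCMNs, 367 ± 18.8 CPM in LPS and 1414 ± 345 CPM in control, with log2 fold changes of 1.63 ± 0.18 and -1.95 ± 0.18 in those comparisons. Its paralogue Scd1 had 1.13 and -1.28, and Acss2, which makes acetyl-CoA from acetate, 2.16 and -1.59 at 1.73 ± 0.727 CPM in LPS. The single call against control in LPS+RCMNs was Me1, the malic enzyme that supplies NADPH, with 0.71 ± 0.13 (adjusted p = 0.0136).

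For sterol uptake, transport and esterification, 7 of 16 tested genes were higher and 5 lower in LPS+RCMNs versus LPS, and 4 higher and 11 lower in LPS versus control (by limma 11 and 2, and 1 and 11). The shares over all genes were those given above, 29.8% and 29.5%, and 31.4% and 32.1%. Nceh1, a hydrolase of cholesteryl esters, averaged 215 ± 49 CPM in LPS+RCMNs, 25.6 ± 0.548 CPM in LPS and 134 ± 4.01 CPM in control, and was called in all 3 comparisons (3.07, -2.39 and, for LPS+RCMNs versus control, 0.68 with adjusted p = 0.0277). Soat1, which esterifies cholesterol for storage, was the other gene called higher in LPS+RCMNs than in control (0.41 ± 0.10, adjusted p = 0.0393). The receptor Lrp1 had -2.11 in LPS versus control. The carrier Stard5 had signs opposite to Stard4 (-2.38 in LPS+RCMNs versus LPS, 2.05 in LPS versus control), and Gramd1c (-2.63 in LPS+RCMNs versus LPS) stayed under 1 CPM on average in every group. Among 6 tested genes of oxysterols and LXR, 3 were higher and 1 lower in LPS+RCMNs versus LPS and 3 lower and none higher in LPS versus control (none higher by edgeR at an unadjusted p below 0.05, DESeq2 or limma). Those 3 were the exporters Abca1 (2.40 and -2.56 in these comparisons) and Abcg1 (2.67 and -2.99) and the oxysterol enzyme Cyp27a1 (1.24 and -1.43). The shares over all genes were again 29.8% and 29.5%, and 31.4% and 32.1%. A set of 6 is too small to read against them. With the length trend removed this set had 3 higher and none lower, and none higher and 4 lower. All genes then had 18.8% and 21.2%, and 23.4% and 21.9%. Among 15 users of isoprenoids, 3 were higher and 7 lower in LPS+RCMNs versus LPS and 5 higher and 1 lower in LPS versus control (by limma 6 and 1, and 1 and 8), beside 29.8% and 29.5%, and 31.4% and 32.1%, of all genes. With the length trend removed the counts were 1 higher and 2 lower, and 5 higher and 3 lower. The shares of all genes were then 18.8% and 21.2%, and 23.4% and 21.9%. Rabggtb, a subunit of the transferase that prenylates Rab proteins, averaged 85 ± 3.35, 215 ± 26.5 and 82.2 ± 10.2 CPM in LPS+RCMNs, LPS and control. Pggt1b, of another geranylgeranyl transferase, averaged 47.6 ± 2.62, 28.9 ± 2.6 and 50.4 ± 1.95 CPM in these groups. Nus1, of the dolichol pathway, was called higher in LPS+RCMNs than in control (0.45 ± 0.11, adjusted p = 0.0382).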

How the data were processed

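Libraries of MH-S cells were made from TRIzol-extracted, poly(A)-selected RNA with a BGI kit, per the labels' protocols, and aligned to mm10, per the submitters' processing notes. No source used here names the aligner, the counter or whether strand was used. The authors deposited estimated counts per gene (77.8% of those above 0 not whole within 0.001), which were rounded, and FPKM, which the authors had scaled to gene length and library total. Library columns were matched by the codes in the samples' descriptions; 4 columns of per-sample values with no matching sample were not used. Total counts of 18.64 to 21.22 M limit the precision of low genes such as Tm7sf2.

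Counts were filtered with filterByExpr, scaled by TMM (0.779 to 0.803 in LPS, 1.05 to 1.13 in the other groups) and tested with edgeR 4.0.16's quasi-likelihood test over all 8 libraries with group as the term, with Benjamini-Hochberg adjustment over 11911 genes and a threshold of 0.05. The biological coefficient of variation was 14.5%. SE is the log2 fold change divided by the root of F. CPM use the TMM-scaled total. Alternatives were median-ratio size factors, DESeq2 1.42.0, no filter, FPKM of at least 5 in 2 libraries, limma 3.58.1 on log2(FPKM + 1), only the groups compared, replicate number as a block, removal of a loess trend (span 0.4) on the gene length implied by counts and FPKM, each library left out, and LPS+RCMNs replicate 2 and control replicate 1 left out. The scripts were tested on simulated data.

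The members, lists and tests were chosen with earlier results of these data known. All 27 genes are named; from each other list the called genes with the largest fold change were named, up to 3 per comparison. Further genes given with values (Soat1, Marco) were chosen after their values were seen. The results of some genes on these lists are not reported here. Promoter windows come from RefSeq, build GRCm38.p6, the same assembly as mm10.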

Additional observations from a re-analysis of the deposited data

How the results depend on the processing

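Each log2 fold change was recomputed under 17 alternatives, except those of Tm7sf2, which had no value under the FPKM filter and so had 16. Of 458 recomputed values in each comparison, 391 kept direction and side of the threshold in LPS+RCMNs versus LPS, 350 in LPS versus control and 377 in LPS+RCMNs versus control, and 19, 31 and 27 turned sign. The calls of Fdft1, Lpin1 and Fads1 in LPS+RCMNs versus LPS, and of Insig1, Lpin1 and Fads1 in LPS versus control, held under every alternative. Across genes, deviations from the group mean of same-numbered samples of different groups correlated from -0.339 to 0.197. Deviations within a group are tied to each other, and those of the LPS libraries are mirror images. These values therefore cannot show whether replicate numbers pair the samples, and the labels do not say so. With the replicate block, 9 members were called in LPS+RCMNs versus LPS, 14 in LPS versus control and 0 in LPS+RCMNs versus control, where 291 genes were called higher and 163 lower, against 516 and 385 without it.

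In LPS+RCMNs versus LPS, limma on FPKM called 14 members higher and 5448 genes higher and 2117 lower, length removal 2238 genes higher, and leaving out LPS+RCMNs replicate 2 and control replicate 1 together gave 7 members higher and 12 lower. Signs turned by limma for Acat2 (0.06), Idi1 (0.12), Cyp51 (0.33), Msmo1 (0.30), Nsdhl (0.32), Sc5d (0.14) and Scap (0.28), by length removal for Ggps1 (-0.17), Lss (-0.20), Msmo1 (0.24), Nsdhl (0.13), Srebf2 (-0.25) and Stard4 (-0.10), by the block for Nsdhl (0.01), and without both libraries for Dhcr7 (-0.13). With 1 library left out, members called higher ranged from 2 to 5, and log2 fold changes from -0.13 to 0.35 for Dhcr7, -0.05 to 0.20 for Fads2, -0.03 to 0.25 for Ggps1 and -0.23 to 0.01 for Nsdhl.

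In LPS versus control, limma called 0 members higher and 20 lower and 2113 genes higher and 5925 lower, and length removal 2 members higher; 13 were lower without both libraries. Signs turned without both libraries for Acat2 (0.11) and Msmo1 (0.03), by length removal for Pmvk (-0.22), Mvd (-0.15), Idi1 (0.01), Ggps1 (0.19), Cyp51 (0.37) and Srebf2 (0.08), and by limma for Mvd (-0.20), Fdft1 (-0.02) and Scap (-0.39). Msmo1, at 0.00, took 0.03 with median-ratio factors and 0.02 with DESeq2, no filter or only the groups compared. With 1 library left out, members called ranged from 2 to 6 higher and 4 to 10 lower, Acat2 from -0.31 to 0.11, Cyp51 from -0.16 to 0.02, Ggps1 from -0.22 to 0.07, Idi1 from -0.16 to 0.14, Msmo1 from 0.00 to 0.06 and Scap from -0.01 to 0.22.

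In LPS+RCMNs versus control, members called lower numbered 1 without the filter, 0 with only the groups compared and 19 without both libraries. Genes called were 1756 higher and 1261 lower without both libraries, and 253 lower without the filter and 242 lower with only the groups compared. Signs turned by limma for Ggps1 (-0.05), for Sqle without the filter (0.01), with the FPKM filter (0.00) and with only the groups compared (0.01), without both libraries for Tm7sf2 (0.07) and Insig2 (0.06), and for Hsd17b7 without the filter (0.01), with the block (0.02) and by length removal (0.03). With 1 library left out, members called lower ranged from 0 to 9, genes called from 223 to 889 higher and from 99 to 483 lower, Ggps1 from -0.02 to 0.05, Hsd17b7 from -0.25 to 0.19 (-0.38 without both), Insig2 from -0.18 to 0.08, Msmo1 from -0.21 to 0.02, Scap from -0.08 to 0.01 (-0.12 without both), Sqle from -0.08 to 0.09 (-0.14 without both libraries) and Tm7sf2 from -0.24 to 0.02. Limma's FPKM were not scaled for composition and the stricter settings use fewer genes or libraries; the cause of the other changes was not tested. Leaving out an LPS library leaves 1, assumed to vary like the other groups.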
